A study of Mus musculus with 71 samples.

Results

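Pro-B cells carrying 1 copy of a C-terminally truncated Pax5 gene were compared with pro-B cells carrying 2 copies of the same gene. The comparison used 4 of the 71 samples of the series, 2 RNA-seq libraries of dCRD2/- cells and 2 of dCRD2/dCRD2 cells, and covered the 12851 of 25579 genes that exceeded 1 TPM (a read count scaled for gene length and depth, which adds up to 1000000 over all genes of a library) in at least 1 of these 4 libraries. In dCRD2/- cells, spelled Pax5(DCRD2/-) in the labels, the truncated gene faced a Pax5 null allele, whereas in dCRD2/dCRD2 cells both alleles were truncated. Hence, the full-length protein was made in neither genotype, and the comparison varied the number of copies of the truncated gene. Only the dCRD2/- cells carried the null allele, so an effect of copy number and an effect of the null allele itself cannot be told apart. Wild-type pro-B cells (+/+ replicates 3 and 4) were set beside them for reference, and cells with 1 or 2 copies of the larger dCRD1,2 deletion for a second dose comparison. All mice were of the C57BL/6 strain, the mutation had been introduced by Cas9 into C57BL/6 x CBA zygotes, and experiments were performed with littermates. The +/+ and dCRD2/- cells were isolated by a sort described for mice aged 3 to 5 weeks, whereas the age of the dCRD2/dCRD2 mice is not given for these libraries. The +/+ and dCRD2/- cells were sorted from bone marrow, without culture, by surface markers that included B220 and Kit and by the absence of CD2, IgM and IgD. For the dCRD2/dCRD2 libraries the labels give only sorted pro-B cells. The sources do not say whether the 2 libraries of a genotype came from separate mice. The p values below therefore measure the spread between libraries of a genotype, pooled over the 18 libraries and 9 genotypes of the fit.

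Pax5 is the transcription factor that commits lymphoid progenitors to the B cell lineage. It binds DNA through its paired domain, activates B cell genes such as Cd79a, and represses genes of other lineages and of earlier progenitors. Earlier transfection assays placed a transactivation domain followed by an inhibitory domain in its C-terminal end. The study divided this end into 2 C-terminal regulatory domains, of which CRD2 is encoded by the last exon. It reports that each of them takes part in both activation and repression, and regards the earlier separation as a likely result of the assay design.

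The sequences at the start of that exon define the truncated allele and are shown to make clear what 1 or 2 copies refer to. Pax5 occupies chr4:44524748-44710694 on the minus strand (GRCm38), and its exon 10, the last of 10, extends from 44524748 to 44531582. In the coding direction the wild-type sequence at chr4:44531540-44531602 is given first, followed by the same stretch of the study's repair template, with the exchanged bases in capitals.
Wild type: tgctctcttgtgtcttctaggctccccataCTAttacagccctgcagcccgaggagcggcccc
Repair template: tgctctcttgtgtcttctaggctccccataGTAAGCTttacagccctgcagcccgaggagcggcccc
The template replaces 3 bases by 7 and leaves 10 coding bases of exon 10 in front of the exchange. It thereby creates the stop codons TAG and TAA as the whole codons 3 and 4 of the exon, where the wild-type stop is codon 25, and it adds 1 site for the enzyme HindIII (AAGCTT). The guide RNA that directed the cleavage is shown on the same strand, preceded in capitals by the 3 bases whose complement on the other strand is the PAM GGG.
Guide with PAM complement: CCCcatactattacagccctgca
This stretch lies at chr4:44531557-44531579 and overlaps the exchanged bases. As the edit altered 3 of the 8220 exon bases of Pax5, reads from the truncated gene were counted like those from the wild-type gene.

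The 4 libraries held 30431551 to 35548625 reads assigned to genes. The expression of the 15 markers of pro-B cells, including Cd79a, Vpreb1 and Igll1, added up to between 25532 and 31449 TPM in each of them, compared with 21343 to 28447 TPM in the 14 other pro-B libraries, so that the labelled cell type was present in all. Replicate 1 of dCRD2/dCRD2 stood apart. Its correlation with the other 3 libraries was 0.916 to 0.927 (Pearson's r across genes on log2 values), whereas those 3 correlated with each other at 0.953 to 0.962. The 20 granulocyte genes, such as S100a8, S100a9 and Ngp, added up to 11362 TPM in replicate 1 and 768 TPM in replicate 2 of dCRD2/dCRD2, and to 18227 and 1375 TPM in replicates 1 and 2 of dCRD2/-. Both replicate 1 libraries thus exceeded all 14 other libraries, which ranged from 287 to 8648 TPM. The 24 macrophage genes added up to 1059 and 297 TPM in dCRD2/dCRD2 and to 1162 and 349 TPM in dCRD2/-, but Lyz2, which is also a granulocyte gene, supplied 654 and 879 TPM of these in the replicate 1 libraries. Without Lyz2 the remaining 23 genes added up to 405 and 192 TPM in dCRD2/dCRD2, to 283 and 156 TPM in dCRD2/- and to 97.2 to 301 TPM in the 14 other libraries. The 14 erythroid genes found in the files reached 1685 TPM in replicate 1 of dCRD2/dCRD2 and 521 to 742 TPM in the other 3 libraries, although the haemoglobin genes Hba-a1, Hba-a2 and Hbb-bs were listed at 0. Conversely, replicate 2 of dCRD2/dCRD2 was high in some genes of later B cells. The 19 genes higher in pre-B than in pro-B cells added up to 2396 TPM in its replicate 1 and 3001 TPM in its replicate 2. The 14 genes of mature B or plasma cells found in the files added up to 2884 and 2810 TPM and were thus not higher in replicate 2. Ms4a1, which encodes CD20, was 11.5 and 62.5 TPM in dCRD2/dCRD2 and 3.27 and 4.26 TPM in dCRD2/-. None of the 20 granulocyte genes was called in the comparison (adjusted p below 0.05, limma), which called 0.638% of all genes. Xist and the Y-linked gene Kdm5d were both read in all 4 libraries. Xist had 8540 and 7073 reads in dCRD2/dCRD2 and 10063 and 9403 reads in dCRD2/-. Kdm5d had 884 and 698 reads, and 397 and 441 reads. None of the 5 sex-linked genes tested was called (median log2 fold change -0.67). With 1 copy 3 of them had non-overlapping lower and 1 higher values, compared with 15.1% and 19.1% of all genes. The part of the sex of the mice in the differences was not tested.

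**Figure D1:**
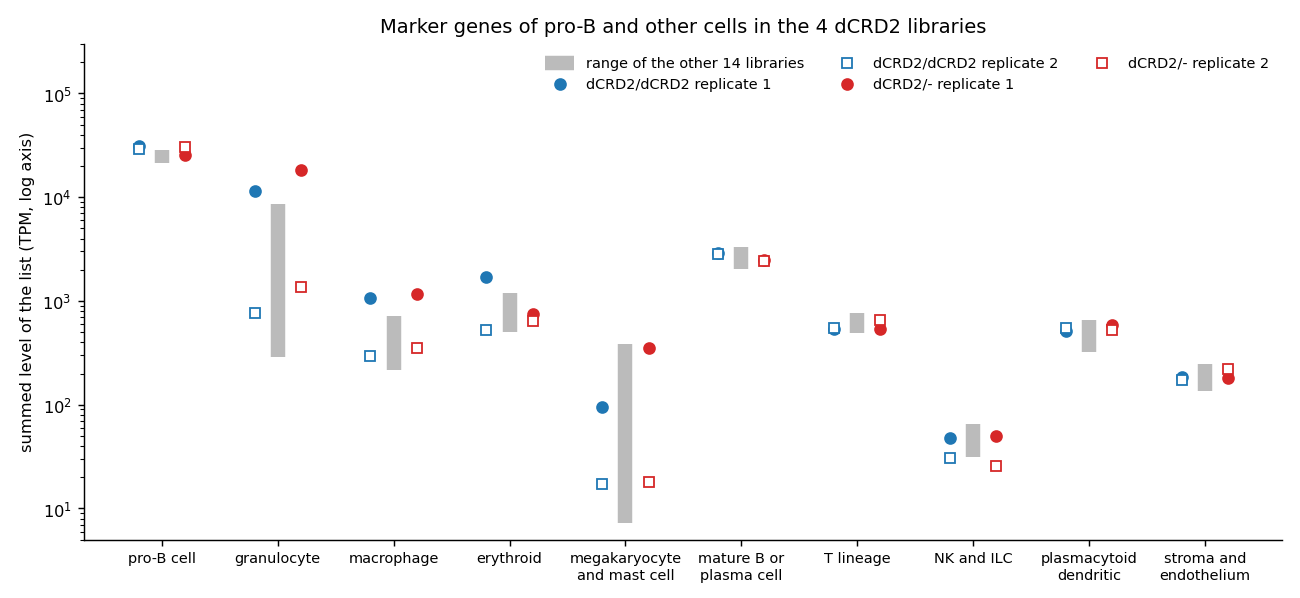
Summed expression (TPM, log axis) of marker genes of pro-B and other cell types in the 2 dCRD2/dCRD2 and the 2 dCRD2/- libraries, with grey bars for the range of the 14 other pro-B libraries. Granulocyte genes reached 11362 and 18227 TPM in the replicate 1 libraries against 768 and 1375 TPM in the replicate 2 libraries, while the pro-B markers stayed between 25532 and 31449 TPM.

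Pax5 mRNA was lower with 1 than with 2 copies of the truncated gene. It was 512 and 464 TPM in the dCRD2/dCRD2 libraries and 241 and 304 TPM in the dCRD2/- libraries, compared with 342 and 360 TPM in +/+ pro-B cells. All dCRD2/dCRD2 values lay above and all dCRD2/- values lay below the +/+ values. Relative to the +/+ mean, the level was 139.1% in cells with 2 truncated copies and 77.7% in cells with 1 copy. The difference between 1 and 2 copies was -0.85 ± 0.14 (log2 fold change ± SE, limma, adjusted p = 0.0194), which corresponds to 0.556 of the level with 2 copies (95% confidence interval 0.452 to 0.683). This interval includes the ratio of 1 copy to 2. The call was lost without dCRD2/dCRD2 replicate 1 (log2 fold change -0.78, adjusted p = 0.153), without dCRD2/- replicate 1 (-0.68, adjusted p = 0.144) and without both (-0.61, adjusted p = 0.477). In bulk RNA fewer cells that express a gene and less RNA per cell cannot be told apart.

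**Figure D2:**
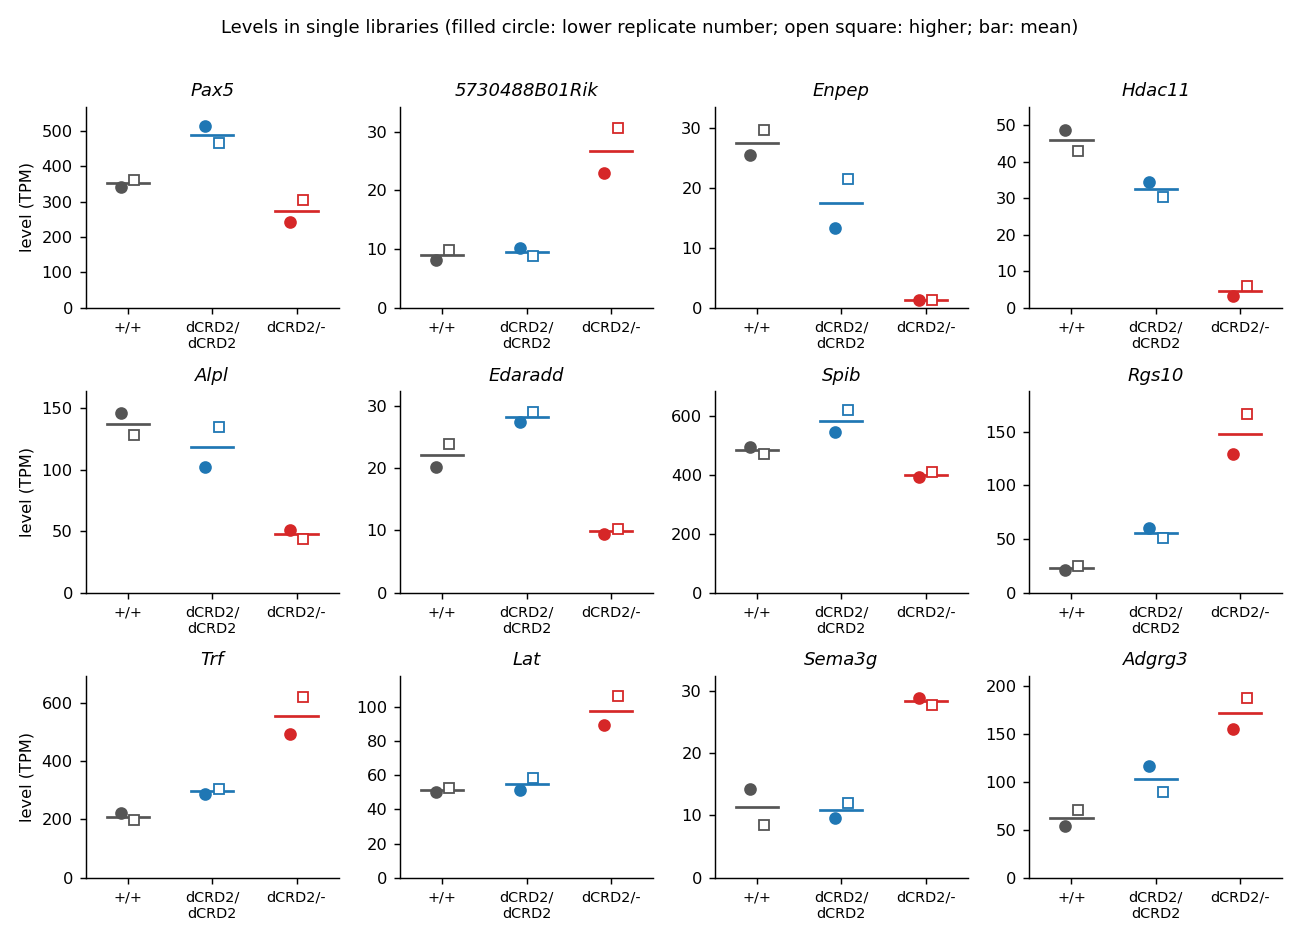
Expression (TPM) of 12 genes in each +/+, dCRD2/dCRD2 and dCRD2/- library, with a filled circle for the lower and an open square for the higher replicate number and a bar for the mean. Pax5, Enpep, Hdac11, Alpl, Edaradd and Spib were lower with 1 than with 2 copies in both libraries, whereas 5730488B01Rik, Rgs10, Trf, Lat, Sema3g and Adgrg3 were higher.

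A transcript from within the Pax5 gene changed in the opposite direction. The long noncoding RNA 5730488B01Rik lies at chr4:44702800-44705110 on the plus strand, in intron 1 of Pax5 and 5253 bases from exon 1. Its level was 10.1 and 8.88 TPM in dCRD2/dCRD2, 23.0 and 30.6 TPM in dCRD2/- and 8.15 and 9.84 TPM in +/+ pro-B cells. The dCRD2/dCRD2 libraries were as low as +/+, and both dCRD2/- libraries were above all of these. The increase was 1.47 ± 0.16 on the log2 scale (limma, adjusted p = 0.00183), and it was called without each single library in turn. The 6 libraries of the 3 genotypes that carry the null allele (dCRD1/-, dCRD2/- and dCRD1,2/-) ranged from 20.1 to 30.6 TPM, and the 12 libraries without it from 8.15 to 18.7 TPM. Whether the reads arose from this RNA or from unspliced Pax5 RNA on the other strand cannot be told apart, as the counting by strand is not stated, and the structure of the null allele in this intron was not examined. Of the 24 other genes tested within 1 Mb of Pax5 none was called. Their log2 fold changes ranged from -0.09 to 1.20, with a lowest adjusted p of 0.199.

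Across all genes, 82 of 12851 (0.638%) were called at an adjusted p below 0.05 by limma. In dCRD2/- cells 57 of them (0.444%) were lower and 25 (0.195%) higher than in dCRD2/dCRD2 cells. By an unadjusted p, 1114 genes were below 0.05. The median log2 fold change of all genes was 0.03, and percentiles 5 and 95 were -0.87 and 0.69. Protein-coding genes accounted for 76 of the called genes, and for 76 the mean of at least 1 genotype exceeded 5 TPM. The study also required genes to differ more than 3-fold and to exceed 5 TPM on average in either genotype, which left 14 genes (0.109%), 11 lower and 3 higher. Here and below, a fold change is on the log2(TPM + 0.1) scale, which understates changes of genes near 0. The 2 libraries of each genotype did not overlap for any of the 82 called genes, but this was also so for 15.1% of all genes in the lower and 19.1% in the higher direction. The number of calls depended on single libraries. It was 39 (0.303%) without dCRD2/dCRD2 replicate 1, 246 without dCRD2/dCRD2 replicate 2, 25 without dCRD2/- replicate 1 and 20 without dCRD2/- replicate 2. Without dCRD2/dCRD2 replicate 1 most of the 82 genes lost their call, and more lost it without both replicate 1 libraries. Their direction could not change in these fits, because the libraries of the 2 genotypes did not overlap.

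**Figure D3:**
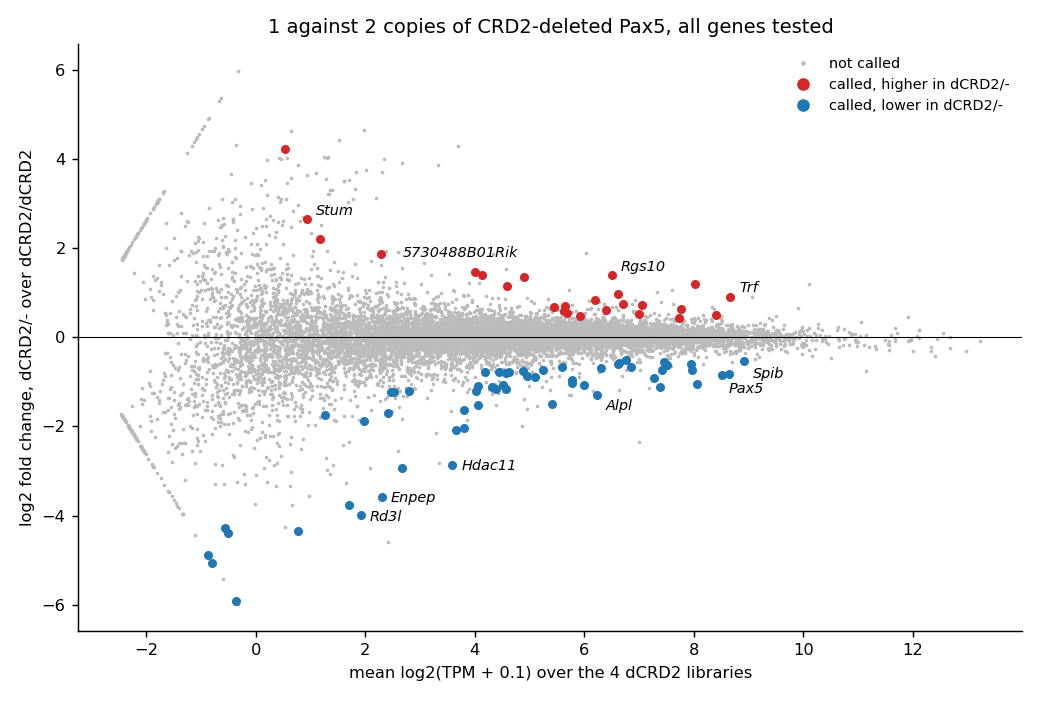
Difference between dCRD2/- and dCRD2/dCRD2 pro-B cells (log2 fold change, y axis) against mean expression (log2 TPM, x axis) for 12851 genes, with the called genes in colour. Most genes lie near the median of 0.03, with 57 called genes below and 25 above.

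The genes that were lower with 1 copy included several enzymes. Enpep encodes the aminopeptidase BP-1, a surface marker of early B cells. It was 13.4 and 21.5 TPM in dCRD2/dCRD2, 1.31 and 1.34 TPM in dCRD2/- and 25.4 and 29.7 TPM in +/+ pro-B cells. The 3 genotypes did not overlap and were ordered +/+, dCRD2/dCRD2, dCRD2/-. The study lists Enpep, Hdac11 and Alpl for a difference between dCRD2/- and +/+ cells, so the ends of this order are not independent evidence. With 1 copy Enpep was 11.96-fold lower than with 2 copies (log2 fold change -3.58 ± 0.38, limma, adjusted p = 0.00183). Hdac11, which encodes a histone deacetylase, was 34.5 and 30.4 TPM in dCRD2/dCRD2, 3.20 and 5.95 TPM in dCRD2/- and 48.8 and 43.0 TPM in +/+ pro-B cells. The order of the genotypes was the same as for Enpep, and the decrease from 2 copies to 1 copy was 7.27-fold (log2 fold change -2.86 ± 0.31, adjusted p = 0.00183). Alpl encodes the tissue-nonspecific alkaline phosphatase. Its level was 102 and 135 TPM in dCRD2/dCRD2, 51.4 and 43.9 TPM in dCRD2/- and 147 and 128 TPM in +/+ pro-B cells. Here dCRD2/dCRD2 replicate 2 lay within the +/+ range, whereas both dCRD2/- libraries lay below all others, and the decrease was 2.47-fold (log2 fold change -1.30 ± 0.15, adjusted p = 0.00225). These 3 genes were called without each single library in turn. Scd1, the stearoyl-CoA desaturase that makes monounsaturated fatty acids, was 10.8 and 27.9 TPM with 2 copies and 3.12 and 1.53 TPM with 1 copy (log2 fold change -2.93 ± 0.59, adjusted p = 0.0445). Its call was lost when any of the 4 libraries was left out, at adjusted p values of 0.0740 and 0.123 without dCRD2/dCRD2 replicates 1 and 2 and of 0.113 and 0.323 without dCRD2/- replicates 1 and 2. Dnase1l3, a secreted DNase, fell 3.67-fold (adjusted p = 0.0318) and was below 0.05 only without dCRD2/dCRD2 replicate 2 (0.0484), the other values being 0.093 to 0.135.

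Edaradd, Tmem132e, Cd36, Spsb4 and Crhbp were also called lower. Edaradd, an adaptor of the ectodysplasin receptor, was 27.4 and 28.9 TPM in dCRD2/dCRD2, 9.39 and 10.3 TPM in dCRD2/- and 20.2 and 23.8 TPM in +/+ pro-B cells. It was thus slightly above +/+ with 2 copies and below it with 1 copy (2.85-fold, log2 fold change -1.51 ± 0.16, adjusted p = 0.00183). The transmembrane protein gene Tmem132e was 67.0 and 77.1 TPM with 2 copies and 22.6 and 28.2 TPM with 1 copy, while +/+ pro-B cells had 102 and 76.4 TPM (2.84-fold lower with 1 copy, adjusted p = 0.00225). Edaradd and Tmem132e were called without each single library in turn. Cd36, a scavenger receptor for fatty acids and a member of the macrophage list, was 30.8 and 21.6 TPM with 2 copies and 7.37 and 4.91 TPM with 1 copy. It decreased 4.24-fold (adjusted p = 0.0354), and +/+ pro-B cells had 8.90 and 14.3 TPM. Of the 19 macrophage genes tested, 15 had a log2 fold change below 0, and the part of macrophage RNA in the values of Cd36 was not tested. The call of Cd36 was lost without dCRD2/dCRD2 replicate 1 (adjusted p = 0.284) and without dCRD2/- replicates 1 (0.0999) and 2 (0.246). Spsb4, a SOCS box protein, and Crhbp, the binding protein of corticotropin-releasing hormone, were lower by 1.70 and 1.64 on the log2 scale (adjusted p = 0.0318 and 0.0228). Crhbp kept its call only without dCRD2/dCRD2 replicate 1 (adjusted p = 0.0298) and Spsb4 only without dCRD2/dCRD2 replicate 2 (0.0452). For the other libraries left out, the adjusted p was 0.061 to 0.181 for Crhbp and 0.107 to 0.199 for Spsb4.

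Several of the largest fold changes concerned genes that are hard to count. Klhl14 and 4930426D05Rik lie on opposite strands of the same region. Klhl14 was 12.3 and 11.6 TPM with 2 copies, 0.905 and 0.683 TPM with 1 copy and 1.10 and 2.34 TPM in +/+ pro-B cells. The dCRD2/dCRD2 libraries were therefore above both +/+ and dCRD2/-, and 4930426D05Rik showed the same order (5.46 and 10.5 TPM, 0.244 and 0.320 TPM, and 1.84 and 1.34 TPM). The log2 fold changes from 2 copies to 1 copy were -3.77 ± 0.65 and -4.34 ± 0.60 (adjusted p = 0.0249 and 0.00770), and how the reads divide between the 2 genes cannot be told. The call of 4930426D05Rik held without each single library, whereas that of Klhl14 held only without dCRD2/dCRD2 replicate 2 (0.0386; 0.0997 to 0.148 for the others). Mir7031, a short gene within Sh2b3, was 3.35 and 10.5 TPM in dCRD2/dCRD2 and listed at 0 in the dCRD2/- and +/+ libraries, so that no fold change is given. Rd3l was 23.2 and 9.68 TPM with 2 copies, 1.04 and 0.682 TPM with 1 copy and 13.1 and 14.02 TPM in +/+ pro-B cells. It fell 16.0-fold (adjusted p = 0.0116), but was called only without dCRD2/dCRD2 replicate 2 (0.0125) and not without any of the other 3 libraries (0.0681 to 0.126). The immunoglobulin segment ENSMUSG00000076666.2 (Ighv14-4) was 34.3 and 22.9 TPM with 2 copies and 5.18 and 8.87 TPM with 1 copy (adjusted p = 0.0466), without a call when any library was left out (0.0514 to 0.417).

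The genes that were higher with 1 copy included Rgs10, which encodes a regulator of G protein signalling that accelerates GTP hydrolysis by G protein alpha subunits. Rgs10 was 60.4 and 50.7 TPM in dCRD2/dCRD2, 129 and 166 TPM in dCRD2/- and 21.5 and 25.4 TPM in +/+ pro-B cells. No values overlapped between the 3 genotypes, and dCRD2/dCRD2 was intermediate. The study lists Rgs10 for a difference between dCRD2/- and +/+ cells, so the order of these ends is not independent evidence. From 2 copies to 1 copy, Rgs10 increased 2.65-fold (log2 fold change 1.41 ± 0.17, limma, adjusted p = 0.00225). Trf, which encodes the iron carrier transferrin, was 287 and 306 TPM with 2 copies, 494 and 620 TPM with 1 copy and 222 and 199 TPM in +/+ pro-B cells. It had the same order of genotypes and rose 1.87-fold (log2 fold change 0.90 ± 0.10, adjusted p = 0.00225). Both Rgs10 and Trf were called without each single library in turn.

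Sema3g and Adgrg3 were also called higher. The semaphorin gene Sema3g was 9.551 and 12.04 TPM with 2 copies and 28.9 and 27.7 TPM with 1 copy, against 14.3 and 8.47 TPM in +/+ pro-B cells. It increased by 1.39 ± 0.20 on the log2 scale (adjusted p = 0.00906), with a call only without dCRD2/dCRD2 replicate 2 (0.0125; 0.0756 to 0.0860 for the others). Adgrg3, an adhesion G protein-coupled receptor, was 117 and 89.2 TPM with 2 copies, 155 and 188 TPM with 1 copy and 54.1 and 70.6 TPM in +/+ pro-B cells. The order was +/+, dCRD2/dCRD2, dCRD2/- without overlap (log2 fold change 0.74 ± 0.15, adjusted p = 0.0432), and the call held only without dCRD2/dCRD2 replicate 1 (0.0425; 0.0997 to 0.311 for the others).

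The other genes named as higher differed in size of change and level. Lat, the adaptor of the T cell receptor, was 51.2 and 58.3 TPM with 2 copies and 89.2 and 106 TPM with 1 copy (log2 fold change 0.83 ± 0.15, adjusted p = 0.0270). The potassium channel subunit Kcng1, the serum response factor binding protein Srfbp1, the receptor activity-modifying protein Ramp1, Gm4827 and Epb41l4b increased by 0.70 to 1.35 on the log2 scale (adjusted p = 0.0194 to 0.0459). Pgf, the placental growth factor, was 2.20 and 2.76 TPM with 2 copies and 7.24 and 11.8 TPM with 1 copy (adjusted p = 0.0424). Stum was 0.753 and 0.582 TPM with 2 copies and 2.42 and 9.17 TPM with 1 copy, an increase of 2.67 ± 0.44 (adjusted p = 0.0194). Snord2, a small nucleolar RNA within Eif4a2, rested on 0 and 1 reads with 2 copies and 5 and 6 reads with 1 copy, and it was not called by edgeR (adjusted p = 0.485). All 8 of these genes and Stum lost their call without at least 1 library, among them dCRD2/dCRD2 replicate 1 (0.0657 to 0.417 without it).

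The genes that the study lists as dependent on CRD2 were defined by comparing the dCRD2/- libraries used here with +/+ libraries. Their direction in this comparison and their dCRD2/- levels relative to +/+ are therefore not independent evidence. Of the 23 genes listed as activated, 14 were called lower and none higher in dCRD2/- than in dCRD2/dCRD2 (0.444% of all genes were called lower). Their median log2 fold change was -1.56, compared with 0.03 for all genes, and ranged from -4.38 (Col5a3) to -0.96 (Cep164). Summed over the 23 genes, expression was 1038 and 904 TPM in +/+, 644 and 727 TPM in dCRD2/dCRD2 and 251 and 251 TPM in dCRD2/- pro-B cells. Cells with 2 truncated copies thus had 70.6% and cells with 1 copy 25.9% of the +/+ mean. Besides the members described above, Serpina3n (a serine protease inhibitor), Col5a3 (a collagen chain), Itgb4 (integrin beta 4), Bcat1 (an aminotransferase of branched-chain amino acids), Socs3 (an inhibitor of JAK-STAT signalling) and Cep164 (a centriole protein) were called. Serpina3n was 3.27 and 2.55 TPM with 2 copies, 0.0759 and 0.0356 TPM with 1 copy and 11.7 and 8.35 TPM in +/+ pro-B cells. The 9 members that were not called included the adaptor gene Grb7, which was 86.8 and 78.8 TPM with 2 copies, 32.3 and 34.8 TPM with 1 copy and 172 and 135 TPM in +/+ pro-B cells (adjusted p = 0.0785). The chemokine receptor gene Cxcr5 was 22.4 and 39.2 TPM with 2 copies, 17.2 and 11.99 TPM with 1 copy and 44.4 and 43.4 TPM in +/+ pro-B cells (adjusted p = 0.157). Without dCRD2/dCRD2 replicate 1, 9 members were called, 8 of the 14 and Slc52a3, with a median over the list of -1.63. Without both replicate 1 libraries 3 of the 14 were called, with a median of -1.67. Without dCRD2/- replicate 1 or 2, 6 and 4 members were called.

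Of the 13 genes listed as repressed through CRD2, 2 were called higher (Rgs10 and Stum) and none lower (0.195% of all genes were called higher). The median log2 fold change was 0.68, with values from 0.27 (Eef1akmt1) to 2.67 (Stum). Summed expression was 69.3 and 84.1 TPM in +/+, 177 and 196 TPM in dCRD2/dCRD2 and 343 and 372 TPM in dCRD2/- pro-B cells. The level with 2 truncated copies was therefore 243% and with 1 copy 466% of the +/+ mean. Members differed in how much of this separation lay between 1 and 2 copies. Hnrnpll, an RNA-binding regulator of splicing, was 14.5 and 18.6 TPM with 2 copies, 29.7 and 21.1 TPM with 1 copy and 1.234 and 2.396 TPM in +/+ pro-B cells. The difference between 1 and 2 copies was 0.60 ± 0.29 (adjusted p = 0.586), with non-overlapping libraries. Eef1akmt1, a lysine methyltransferase gene, was 22.7 and 33.3 TPM with 2 copies and 36.9 and 29.8 TPM with 1 copy, with overlapping libraries, and 7.99 and 8.81 TPM in +/+ pro-B cells. Il2ra, the alpha chain of the interleukin 2 receptor, was 4.67 and 3.66 TPM with 2 copies, 10.3 and 9.44 TPM with 1 copy and 1.53 and 3.30 TPM in +/+ pro-B cells (log2 fold change 1.23 ± 0.33, adjusted p = 0.177).

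**Figure D4:**
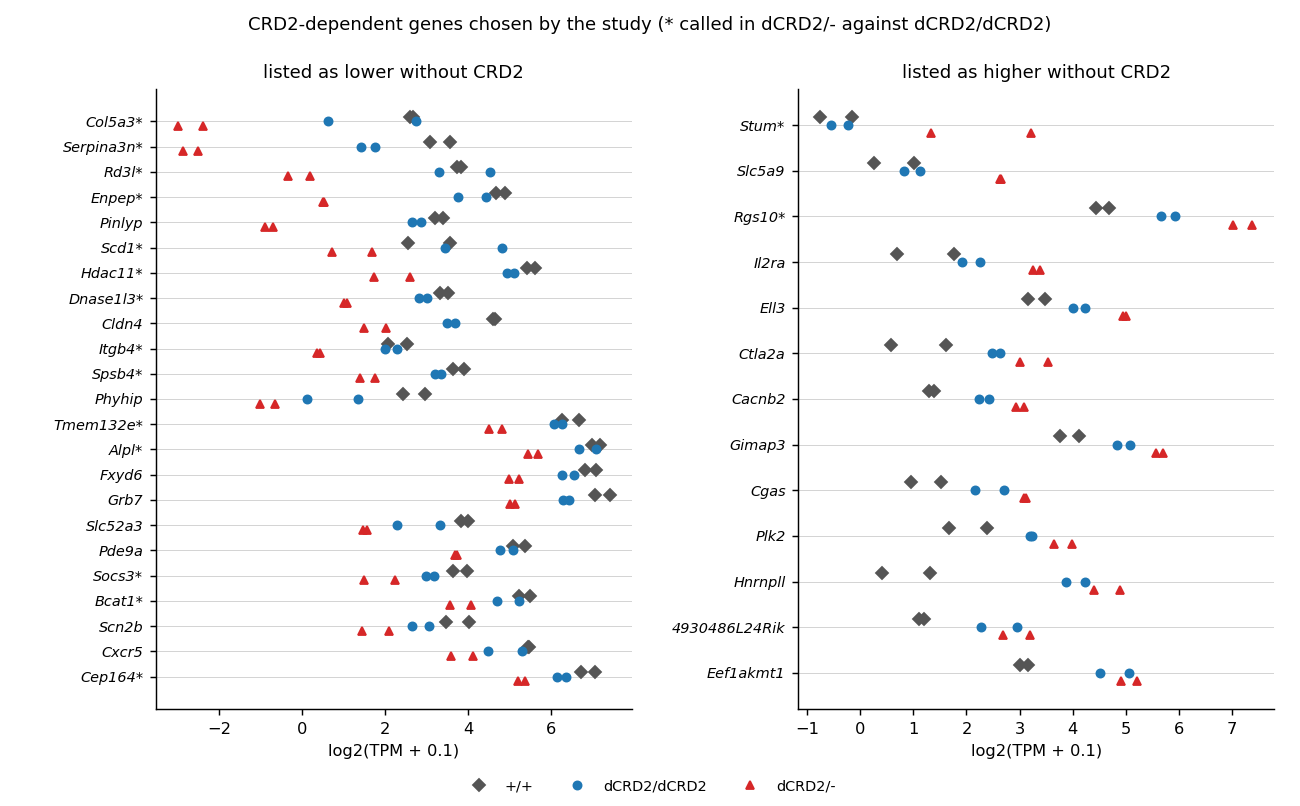
Expression (log2(TPM + 0.1), x axis) of the 23 genes listed by the study as activated (left) and the 13 listed as repressed (right) through CRD2, with 1 symbol per +/+, dCRD2/dCRD2 or dCRD2/- library and an asterisk for called genes. Summed expression fell from 971 (+/+ mean) over 686 to 251 TPM for the activated and rose from 76.7 over 187 to 357 TPM for the repressed genes. Both lists were chosen by the difference between dCRD2/- and +/+ libraries.

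Genes that the study names for the other C-terminal domain, CRD1, gave 3 calls. Of 19 activated genes 1 was called lower (Bfsp2, which encodes a filament protein known from the lens), compared with 0.444% of all genes, with a median log2 fold change of -0.21. Bfsp2 was 551 and 509 TPM with 2 copies and 285 and 314 TPM with 1 copy (adjusted p = 0.0432), and no call was made without dCRD2/dCRD2 replicate 1 (0.312), dCRD2/dCRD2 replicate 2 (0.0585) or dCRD2/- replicate 1 (0.274) or 2 (0.181). Of 20 repressed genes tested 2 were called higher, with Sema3g among them, compared with 0.195% of all genes, and the median was 0.47. Flt3, a cytokine receptor of lymphoid progenitors, was 16.1 and 15.1 TPM with 2 copies, 31.6 and 26.9 TPM with 1 copy and 15.7 and 21.2 TPM in +/+ pro-B cells. Its libraries did not overlap, but the gene was not called (log2 fold change 0.90 ± 0.19, adjusted p = 0.0599).

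Genes of B cell development were examined by list, beside the 0.638% of all genes that were called. Among 34 transcription factors of the B lineage, Spib was lower with 1 copy and none was higher, and the median log2 fold change was 0.06. Spib, an Ets family factor, was 545 and 622 TPM in dCRD2/dCRD2, 393 and 410 TPM in dCRD2/- and 496 and 472 TPM in +/+ pro-B cells. The dCRD2/dCRD2 values lay above and the dCRD2/- values below +/+ (log2 fold change -0.54 ± 0.09, adjusted p = 0.0194), and the call was lost without dCRD2/- replicate 1 (0.0999) or 2 (0.0810). None of 32 genes of B cell receptor and pre-BCR signalling (median -0.06) and none of 14 genes of the surrogate light chain and V(D)J recombination (median -0.07) was called. For example, Igll1, a component of the surrogate light chain, was 7303 and 6959 TPM with 2 copies and 5407 and 6720 TPM with 1 copy (log2 fold change -0.24 ± 0.12). Of 19 genes higher in pro-B than in pre-B cells, Enpep and Bst1 were called lower and Cd93 higher, with a median of -0.12. Bst1, the ectoenzyme BP-3, was 225 and 200 TPM with 2 copies and 139 and 151 TPM with 1 copy (adjusted p = 0.0318). Cd93, the surface antigen AA4.1 of early B cells, was 297 and 274 TPM with 2 copies, 411 and 396 TPM with 1 copy and 208 and 257 TPM in +/+ pro-B cells (adjusted p = 0.0411). The calls of Bst1 and Cd93 were lost without dCRD2/dCRD2 replicate 1 (0.227 and 0.110) and without dCRD2/- replicate 1 (0.202 and 0.222) or 2 (0.107 and 0.169), and that of Cd93 also without dCRD2/dCRD2 replicate 2 (0.0801).

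Among genes typical of later B cells, several had lower values in dCRD2/-. Of the 4 libraries, dCRD2/dCRD2 replicate 2 was the highest for 11 of the 19 genes that are higher in pre-B than in pro-B cells and for 6 of 13 genes of mature B or plasma cells. Of 12 genes of MHC class II presentation, 6 were highest in dCRD2/dCRD2 replicate 1 and 5 in replicate 2. Of the 19 pre-B cell genes, Spib and Tnfrsf13c were called lower, the median was -0.54, and 12 had non-overlapping lower values (15.1% of all genes had). Tnfrsf13c, the receptor of the B cell survival factor BAFF, was 128 and 165 TPM with 2 copies, 87.0 and 96.2 TPM with 1 copy and 104 and 113 TPM in +/+ pro-B cells. It was lower by 0.66 ± 0.13 on the log2 scale (adjusted p = 0.0424), with a call left only without dCRD2/dCRD2 replicate 1 (0.0298; 0.0995 to 0.268 for the others). Among 12 genes of MHC class II presentation the median was -0.41 and H2-Ab1, a chain of the class II molecule, was called. H2-Ab1 was 202 and 252 TPM with 2 copies, 145 and 150 TPM with 1 copy and 216 and 198 TPM in +/+ pro-B cells (log2 fold change -0.61 ± 0.11, adjusted p = 0.0233), and was not called without dCRD2/- replicate 1 (0.122) or 2 (0.126). Cd74, the invariant chain, was 145 and 577 TPM with 2 copies and 71.4 and 45.3 TPM with 1 copy (adjusted p = 0.198). Of 13 genes of mature B or plasma cells none was called, with a median of -0.21. The high values of Cd74, Ms4a1 and Fcmr (29.2 and 116 TPM with 2 copies, 11.5 and 18.4 TPM with 1 copy) were those of dCRD2/dCRD2 replicate 2. The part of later B cells in this library in these differences was not tested.

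The lists of progenitors and other lineages are also to be read against the 0.638% of all genes that were called, a share near which a count of 0 is no result about a list. Of 24 progenitor genes none was called, and the median log2 fold change was 0.17. The 8 Gimap genes, GTPases of lymphocytes, all had non-overlapping higher values with 1 copy, compared with 19.1% of all genes, and a median of 0.50, but none was called. Gimap3, with the lowest adjusted p of these (0.0553), was 28.4 and 33.8 TPM with 2 copies, 47.3 and 52.0 TPM with 1 copy and 13.5 and 17.2 TPM in +/+ pro-B cells. Among 16 T lineage and Notch pathway genes Lat was called higher and Thy1 lower. Thy1, a glycoprotein of thymocytes, was 36.5 and 30.3 TPM with 2 copies, 14.5 and 17.1 TPM with 1 copy and 43.9 and 32.1 TPM in +/+ pro-B cells (log2 fold change -1.08 ± 0.22, adjusted p = 0.0461), and lost its call when any library was left out (0.0524 to 0.384). In the 19 macrophage genes tested, Cd36 alone was called (median -0.69), and none of the 11 erythroid (median -0.64), 20 granulocyte (0.42), 10 megakaryocyte or mast cell (0.45), 11 plasmacytoid dendritic (0.22), 10 stromal (-0.09) and 5 natural killer cell genes (-0.09) was called. These medians depended on single libraries. Without dCRD2/dCRD2 replicate 1 the macrophage, erythroid and stromal medians turned positive, to 0.10, 0.37 and 0.17, and the granulocyte and megakaryocyte or mast cell medians became 2.02 and 1.54. Without dCRD2/- replicate 1 the last 2 were -1.41 and -0.70.

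For general cell functions the same share of 0.638% applies. No gene was called among 50 of the cell cycle (median 0.03), 28 of glucose metabolism (0.00), 18 of the heat shock and stress response (0.19), 11 of the glucocorticoid pathway (0.09), 15 of the circadian clock (-0.02) and 15 of the BCL2 family (-0.12). Among 33 sterol and lipid genes Scd1 alone was called (-0.01), among 19 chemokine and adhesion genes 1 was called higher and 1, Itgb4, lower (0.09), and among 21 genes of JAK-STAT signalling Socs3 (0.07). Of 29 immediate-early genes Socs3 and Gadd45b were lower (median -0.10, or 0.07 without dCRD2/dCRD2 replicate 1). The 39 interferon-stimulated genes included none that was called, but 19 of them had non-overlapping lower values with 1 copy (15.1% of all genes had), with a median of -0.29 that became -0.13 without dCRD2/dCRD2 replicate 1. Of the Pax family and Groucho corepressors, 6 were tested, and Pax5 alone was called.

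The same change of gene dose was available for the dCRD1,2 allele, which lacks both C-terminal domains and whose libraries share no sample with those of dCRD2. Here too, only the cells with 1 copy carried the null allele. The dCRD1,2/- cells were sorted by a different gate, as Lin- Ly6D+ Kit-high B220+ cells, and the gate of the dCRD1,2/dCRD1,2 libraries is not given. From 2 copies to 1 copy of dCRD1,2, 38 of 12851 genes were called (0.296%), 14 higher and 24 lower. Pax5 mRNA was 770 and 761 TPM with 2 copies and 416 and 546 TPM with 1 copy of dCRD1,2 (log2 fold change -0.68 ± 0.14, adjusted p = 0.0753). Across all genes, which are not independent replicates, the dose differences of both alleles correlated with Pearson's r = 0.047, and across the 82 genes called for dCRD2 with r = 0.385. Of the 57 genes called lower for dCRD2, 44 also had a negative value for dCRD1,2, as had 55.6% of all genes, with a median of -0.34 compared with -0.03. Of the 25 genes called higher, 18 had a positive value, while 55.6% of all genes had a negative one. The median of these 25 was 0.20, compared with -0.03 for all genes.

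Calls for both alleles were obtained for 10 genes, which is 12.2% of the 82 and 26.3% of the 38, and all 10 changed in the same direction. Alpl, Cd36, Crhbp and Edaradd were lower and Rgs10 was higher with 1 copy of either allele. The remaining 5, Ehd2, Sdc4, Sertad4 and Card9 (lower) and Myl4 (higher), were chosen after their values were seen. For dCRD1,2 the calls of Cd36 and Sertad4 rest on low values. Cd36 was 2.25 and 0.92 TPM with 2 copies and 0.28 and 0.21 TPM with 1 copy of dCRD1,2. Sertad4 was 0.98 and 0.68 TPM, and 0.26 and 0.15 TPM. The 19 macrophage genes tested had a median of -0.62 for dCRD1,2, and the part of macrophage RNA in Cd36 was not tested. Edaradd was 11.2 and 10.9 TPM with 2 copies and 2.69 and 3.32 TPM with 1 copy of dCRD1,2 (log2 fold change -1.85, adjusted p = 0.000134), beside -1.51 for dCRD2. Rgs10 was 7.38 and 6.48 TPM with 2 copies and 29.7 and 41.2 TPM with 1 copy of dCRD1,2 (log2 fold change 2.32, adjusted p = 2.88e-05). Sdc4, a heparan sulphate proteoglycan of the cell surface, was 331 and 315 TPM with 2 copies and 185 and 201 TPM with 1 copy of dCRD2, and 153 and 157 TPM and 89.9 and 87.4 TPM for dCRD1,2. The log2 fold changes of Sdc4 were -0.74 ± 0.10 and -0.81 ± 0.10 (adjusted p = 0.00561 and 0.00194), and the call for dCRD2 was lost without dCRD2/- replicate 1 (0.0553).

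**Figure D5:**
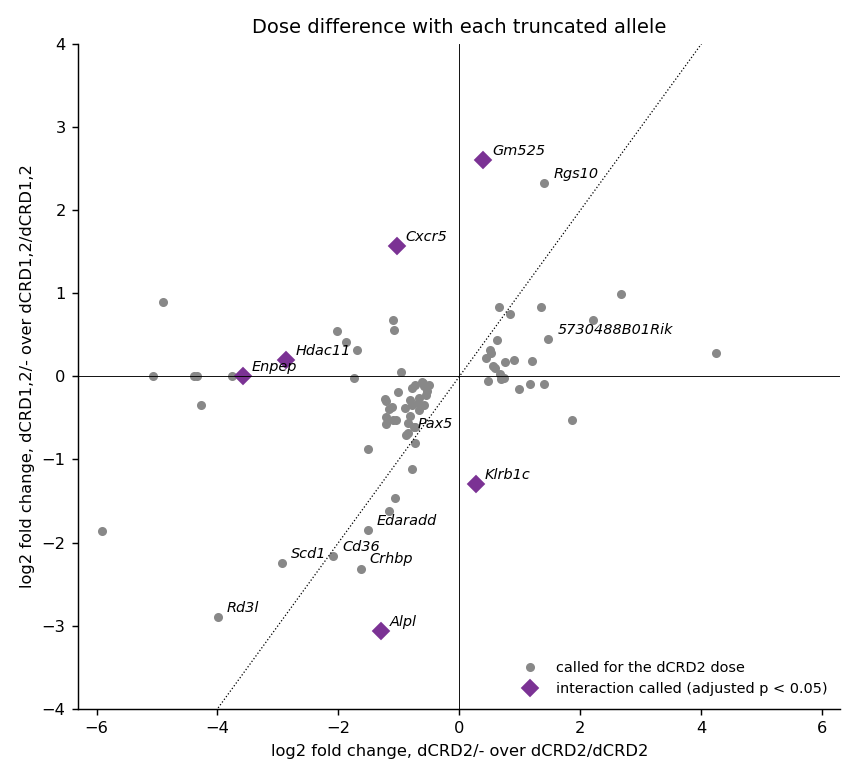
Log2 fold change from 2 copies to 1 copy of the dCRD1,2 allele (y axis) against that of the dCRD2 allele (x axis), for the 82 genes called for dCRD2 (grey) and the 6 genes with a called interaction of dose and allele (purple), with the dotted line at equal values. Edaradd (-1.51 and -1.85) and Rgs10 (1.41 and 2.32) lie on the same side for both alleles, whereas Hdac11 (-2.86 and 0.20) lies near 0 for dCRD1,2.

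The interaction term, which compares the dose difference of both alleles, was called for 6 genes (0.0467% of 12851, limma, adjusted p below 0.05), while 772 genes had an unadjusted p below 0.05. Hdac11 fell with dCRD2 dose as described, but was 1.41 and 2.37 TPM with 2 copies and 2.03 and 2.19 TPM with 1 copy of dCRD1,2 (log2 fold change 0.20 ± 0.31), which leaves a difference between the alleles of -3.06 ± 0.44 (adjusted p = 0.0343). It was already low with 2 copies of dCRD1,2. Alpl was 61.2 and 61.9 TPM with 2 copies and 6.94 and 7.63 TPM with 1 copy of dCRD1,2, and its decrease of -3.06 ± 0.15 exceeded that for dCRD2 by 1.76 ± 0.22 (adjusted p = 0.0123). Enpep was at 0 in all 4 dCRD1,2 libraries, so that a dose effect could not be measured there and its interaction term shows no difference between the alleles. For the 3 other genes, Cxcr5, Gm525 and Klrb1c, the call for dose was made with dCRD1,2 and not with dCRD2. Without dCRD2/- replicate 1 no interaction was called, and without dCRD2/dCRD2 replicates 1 and 2 or dCRD2/- replicate 2 the number was 11, 37 and 3.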

How the data were processed

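RNA from sorted bone marrow pro-B cells was poly(A)-selected, and libraries were prepared, per the labels, with the NEBNext Ultra II kit and sequenced with reads of 100 nt. The authors trimmed the reads, aligned them to GRCm38/mm10 with STAR 2.4.2a (the submitters' processing notes also name SAMtools 1.9, and TopHat 1.4.1 and Bowtie 1.0.0, which the study used for other cell types and for ChIP-seq and ATAC-seq), assigned them to genes with Rsubread, and deposited 25579 genes per library as TPM. The strand setting is not given in the sources used here. The dCRD2/dCRD2 files carry no gene names, and names were assigned by the row order of +/+ replicate 3, whose raw counts, deposited in the same files, were 0 on the same rows as its named TPM values on 25579 of 25579 rows. Dividing these raw counts by TPM gave a length for 14859 genes, and with it TPM values of all 18 libraries returned whole reads (100% within 0.01 reads, 27587112 to 40685256 reads per library). Of the genes tested, 361 had no length. Intervals cover counting and replicate spread only, and depth limits genes near 0. No columns of comparisons made by the authors were used, and 0 columns of per-sample values were left unmapped.

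Genes above 1 TPM in at least 1 of the 4 dCRD2 libraries were tested with limma 3.58.1 in R 4.3.3 on log2(TPM + 0.1), with a trend of the spread on expression, two-sided, with Benjamini-Hochberg adjustment over 12851 genes. The fit held 18 libraries, 2 for each of 9 genotypes, with genotype as the only term, where the study used DESeq2 on counts. Counts at the study's thresholds leave out immunoglobulin (219 tested) and histone genes (57 tested), as in the study. The scripts were tested on simulated data. Alternatives were another pseudocount, filter, scaling or set of libraries, the replicate number as a term, and edgeR 4.0.16 and DESeq2 1.42.0 on recovered reads. The members, gene lists and tests were chosen with earlier results of these data known. Genes were named by rule: Pax5, the 15 called genes in each direction with the largest fold changes among those above 5 TPM in 1 genotype, the CRD2 lists of the study, up to 6 genes of each other list, genes called in the interaction, and genes within 1 Mb of Pax5. Some genes that these rules name are not reported here. Coordinates and sequences are from the RefSeq annotation and genome of GRCm38.p6, and the guide and repair template from the study's oligonucleotide list.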

Additional observations from a re-analysis of the deposited data

Results flagged for a closer look

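A test of whether the difference between 1 and 2 copies of truncated Pax5 differed between the dCRD2 and the dCRD1,2 allele was called for 6 genes (limma, interaction term, adjusted p below 0.05). The dCRD1,2/- libraries were sorted by another gate, that of the dCRD1,2/dCRD1,2 libraries is not given, and the part of the gate in these values was not tested. Hdac11 (-3.06 ± 0.44 on the log2 scale, adjusted p = 0.0343) and Enpep (-3.58 ± 0.54, adjusted p = 0.0366) fell with dCRD2 dose, but ranged from 1.41 to 2.37 TPM (Hdac11) and were at 0 (Enpep) in the 4 dCRD1,2 libraries. The term of Enpep is therefore its dCRD2 difference alone and shows no difference between the alleles. Alpl (1.76 ± 0.22, adjusted p = 0.0123) fell with both alleles, by 1.30 for dCRD2 and by 3.06 for dCRD1,2. Klrb1c, which encodes the lectin-like receptor NK1.1, was 12.9 and 11.9 TPM with 2 copies and 16.3 and 13.7 TPM with 1 copy of dCRD2, and 24.3 and 20.7 TPM and 8.92 and 9.19 TPM for dCRD1,2 (1.57 ± 0.19, adjusted p = 0.0123). Gm525 was 35.9 and 43.5 TPM with 2 copies and 53.4 and 50.7 TPM with 1 copy of dCRD2, and 4.67 and 3.85 TPM and 29.9 and 23.0 TPM for dCRD1,2 (-2.21 ± 0.30, adjusted p = 0.0270). Cxcr5, the chemokine receptor of follicular B cells, was 1.89 and 1.56 TPM with 2 copies and 6.57 and 4.23 TPM with 1 copy of dCRD1,2, in the direction opposite to its values for dCRD2 (-2.60 ± 0.38, adjusted p = 0.0343). No interaction was called without dCRD2/- replicate 1.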

How the results depend on the processing

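With 82 genes called, the number was 53 with a pseudocount of 0.01, 225 with DESeq2 on recovered reads and 37 without both replicate 1 libraries, an alternative chosen after seeing the data. It was 0 with the 4 dCRD2 libraries alone, a fit of 2 against 2 libraries, and 20 to 246 with 1 library left out. A lone library left in a genotype was assumed to vary like the other groups. It was 106 with edgeR on recovered reads, 105 with a pseudocount of 1 or quantile normalization, and 56 to 80 with the other settings. The 14 genes past the study's thresholds became 4 with a pseudocount of 0.01, 8 with no filter on low values, 0 with the 4 libraries alone, 7 without both replicate 1 libraries and 4 to 22 with 1 library left out. The Pax5 difference of -0.85 was no longer called with the 4 libraries alone (-0.85, adjusted p = 0.404) and without both replicate 1 libraries (-0.61), and was -1.01 to -0.68 with 1 library left out. The 6 interactions became 10 with a pseudocount of 1 or quantile normalization, 11 with edgeR, 53 with DESeq2 and 0 to 37 with 1 library left out. The median of the activated CRD2 genes, -1.56, was -1.72 and -1.29 with pseudocounts of 0.01 and 1, -1.40 above 5 TPM, -1.75 with quantile normalization, edgeR and DESeq2 alike, and -1.73 to -1.52 with 1 library left out. Neither Pax5, nor the medians of the 2 CRD2 lists, nor any called gene named by the rule changed direction under these alternatives. For Pax5, the called genes and these 2 medians this was fixed in advance where libraries were left out. The libraries of the 2 genotypes did not overlap for Pax5 and the called genes. They also did not overlap for any of the 23 activated and for 11 of the 13 repressed CRD2 genes. Of 630 medians of 35 lists under 18 settings, 47 had the opposite sign, 41 of them with libraries left out. Except for the numbers of libraries and genes each fit holds, the cause of these changes was not tested.

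The replicate numbers of the labels are shared by the mutant genotypes, but only 2 exist and nothing says that a number marks a shared litter or day. Deviations of same-numbered dCRD2/dCRD2 and dCRD2/- libraries correlated with r = 0.169, the highest of 28 pairs of mutant genotypes (-0.236 to 0.169). With the replicate block over the 16 mutant libraries 73 genes were called, and with the replicate block in the 4 dCRD2 libraries alone 0. In the latter fit 0 genes passed the study's thresholds, and Pax5 was not called (-0.85, adjusted p = 0.247).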

Other observations

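The genes below were chosen after their values were seen. Some called genes were higher in dCRD2/dCRD2 than in both +/+ and dCRD2/- libraries. Ifi30, a lysosomal thiol reductase of antigen processing, was 203 and 299 TPM with 2 truncated copies, 112 and 115 TPM with 1 copy and 116 and 112 TPM in +/+ pro-B cells. It was lower by 1.12 ± 0.16 on the log2 scale with 1 copy (limma, adjusted p = 0.00906), and was not called without dCRD2/- replicate 1 (0.0784) or 2 (0.0767). The value of 299 TPM was that of dCRD2/dCRD2 replicate 2, which was high in some genes of later B cells. The part of such cells in the values of Ifi30 was not tested. Mgst2, a microsomal glutathione transferase, was 429 and 342 TPM with 2 copies, 185 and 188 TPM with 1 copy and 233 and 264 TPM in +/+ pro-B cells (limma, adjusted p = 0.0411). Its dCRD2/- values thus lay below +/+. With 1 library left out its log2 fold change was -1.205 to -0.8773, and its call depended on single libraries.

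Tec and Pik3r1 were called higher with 1 copy. Tec, a tyrosine kinase of lymphocyte receptors, was 37.2 and 43.6 TPM with 2 copies, 59.9 and 61.5 TPM with 1 copy and 33.2 and 41.4 TPM in +/+ pro-B cells (adjusted p = 0.0411). Pik3r1, the regulatory subunit of PI 3-kinase, was 33.9 and 34.5 TPM with 2 copies, 53.5 and 56.0 TPM with 1 copy and 26.5 and 36.1 TPM in +/+ pro-B cells (adjusted p = 0.0411). Both dCRD2/- libraries exceeded the other 4 for each gene, but Tec was called only without dCRD2/dCRD2 replicate 2 (0.0246; 0.171 to 0.291 for the others) and Pik3r1 in none of the 4 fits with a library left out (0.0592 to 0.227).

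Of the 82 called genes, 11 were called in each of the 4 fits that leave out 1 library. These were Enpep, Hdac11, Alpl, Edaradd, Tmem132e, 4930426D05Rik, Map7 and Gm24148 (lower) and 5730488B01Rik, Rgs10 and Trf (higher). Map7, a microtubule-associated protein, was 70.6 and 84.7 TPM with 2 copies, 34.9 and 41.9 TPM with 1 copy and 83.1 and 81.7 TPM in +/+ pro-B cells. Gm24148 lies within Ncl and was listed at 0 in both dCRD2/- and both +/+ libraries.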
